A study of Mus musculus with 9 samples.

Results

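The genes described here are 45 nucleolar factors of ribosome biogenesis: small nucleolar ribonucleoprotein (snoRNP) proteins, processing factors and assembly factors, with the subunits of RNA polymerase I left out. They were chosen by symbol from knowledge of the pathway, with earlier results of these data known. Each symbol matched 1 Ensembl gene of the deposited table. All 45 passed the filter on low counts, out of 13424 genes tested and 35771 in the table. RNA was sequenced from mouse embryonic stem cells (ESCs) of the genotype Homozygous iMOS T1-Myc; RERT, on a mixed background. The iMOS T1-Myc allele produces a mosaic of cells that differ in extra copies of Myc and of the fluorescent marker EYFP, and RERT makes that recombination depend on 4-hydroxytamoxifen. Induced cultures received 20 µM 4-hydroxytamoxifen for 24 h and were sorted on EYFP 24 h after the drug was removed. The cells with 2 extra Myc copies and the cells with no extra copy came out of the same mosaic cultures, so the second group had been exposed to the drug and had grown beside cells with extra copies. The control group was sorted from cultures of this line that had not been induced. The labels repeat the drug text for these samples, and their titles were taken as the statement of the group. Each group has 3 libraries of total RNA, called biological replicas by the submitters. The labels do not say that these are separate cultures, so the p-values measure the spread between these libraries.

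The nucleolus is where ribosomal RNA is transcribed, chemically modified, cut and packed with proteins into the precursors of the small and large ribosomal subunits. Box C/D snoRNPs methylate the ribose of ribosomal RNA, box H/ACA snoRNPs convert uridine to pseudouridine, and the U3 snoRNP guides the first cuts. Most other factors act on the precursor of 1 subunit and leave before the ribosome is finished. Genes of this pathway are classic targets of Myc, a transcription factor that drives cell growth, and stem cells that divide fast express them at a high level.

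The libraries held 4165286 to 8872303 expected counts. Levels are given as CPM, counts scaled to the total of a library, so in these bulk samples fewer cells of a type and less RNA per cell cannot be told apart. Myc itself averaged 142 ± 4.36 CPM in the libraries with 2 extra copies, 31.6 ± 0.913 CPM in those with none and 13.3 ± 1.51 CPM in the uninduced ones (SD, n = 3). The labels give 2 and 0 extra copies for the first groups, in the order of their Myc levels, and set no order between the last and the second. The counts cannot tell the transgene's Myc from the endogenous gene's. Replicate 1 with 2 extra copies stood apart from the other libraries of its group: the chi-square per degree of freedom over genes was 2.61 and 2.97 against them, and 1.36 to 1.80 for all other pairs within a group. Without this library, 44 of the 45 factors were called higher against no extra copy, in place of 42, and the count against uninduced cells stayed at 42. The 10 ESC markers, among them Pou5f1 and Sox2, summed to 3932 to 4003 CPM in uninduced cells, 4073 to 4146 without an extra copy and 3796 to 3992 with 2 extra copies. The 10 fibroblast markers summed to 81.0 to 86.0, 199 to 223 and 124 to 134 CPM in the same order, the 11 endoderm markers to 234 to 237, 300.4 to 345 and 203 to 218, and the 8 trophectoderm markers to 148 to 160.4, 214 to 239 and 187 to 202. These 3 lists were thus highest with no extra copy. With no extra copy, 5 of the 7 fibroblast markers tested and 3 of 6 endoderm markers were called higher than in uninduced cells. The same held for 2 of 4 trophectoderm markers, beside 7.10% of all genes tested. The collagen genes Col1a1 and Col1a2 and the smooth muscle genes Acta2 and Tagln were among the markers called higher. So were the keratin genes Krt8 and Krt18, and these 6 genes rose by 2.41-fold (Tagln) to 3.66-fold (Col1a2). The 6 endoderm markers tested changed by 0.912-fold to 1.75-fold there. Of the 10 ESC markers, 4 were called higher there and 2 lower, beside 7.10% and 6.39% of all genes tested. Against no extra copy, 4 fibroblast, 5 endoderm and 3 trophectoderm markers and 4 of the 10 ESC markers were called lower with 2 extra copies. Of all genes tested, 7.70% were called lower there. Against uninduced cells, 5 of 7 fibroblast and 2 of 4 trophectoderm markers were called higher with 2 extra copies, and 2 of 6 endoderm markers lower. In that comparison 1 of the 10 ESC markers was called higher and 2 lower, beside 12.8% and 12.1% of all genes tested. Gata4 of the endoderm list had group means of 3.14 to 4.14 CPM, and Eomes of the trophectoderm list 1.65 to 3.30 CPM. These are single markers of their lists. The markers that did not pass the filter on low counts were Lum, Postn, S100a4, Gata6, Sox17, Sox7, Foxa2, Afp, Cdx2, Elf5, Gata3 and Hand1, with group means of at most 1.08 CPM. The part of fibroblasts, endoderm or trophectoderm cells in the results was not tested.

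Nucleolar factors were higher in cells with 2 extra Myc copies than in cells with no extra copy, in all 5 of their roles. With edgeR's quasi-likelihood test, 42 of the 45 were called higher at an adjusted p below 0.05 and 0 were called lower. Of all genes tested, 8.30% were called higher and 7.70% lower. The count of lower factors was also 0 at an unadjusted p below 0.05 and with DESeq2, since all 45 changes were positive. In 43 factors every library with 2 extra copies lay above every library with no extra copy, as in 15.4% of all genes tested. The median change was 1.17-fold (log2 0.23), the range was 1.04-fold to 1.30-fold, and the median over all genes tested was 0.992-fold. The scaling of the libraries holds the centre of all genes near no change, so a change of all RNA per cell would not show. The summed level of the 45 factors was 14927.6 ± 121 CPM without an extra copy and 17451 ± 437 CPM with 2 extra copies.

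The factors were also higher with 2 extra copies than in uninduced cells. Here 42 of 45 factors were called higher and 0 lower, where 12.8% of all genes tested were called higher and 12.1% lower. No factor was lower at an unadjusted p below 0.05, and DESeq2 called 39 higher and 0 lower. In 42 factors all libraries with 2 extra copies lay above all uninduced libraries, against 19.1% of all genes tested. The median change was 1.20-fold, from 1.01-fold for Nop58 to 1.56-fold for Nop10. Both comparisons share the libraries with 2 extra copies, so their counts are not independent of each other.

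Between cells with no extra copy and uninduced cells the 45 factors did not move in a common direction, while Myc was 2.36-fold higher with no extra copy (log2 1.24, SE 0.096, edgeR adjusted p = 1.10e-11). Here 5 factors were called higher and 4 lower. Over all genes tested the shares were 7.10% and 6.39%. In 12 factors the libraries with no extra copy all lay above the uninduced libraries, and in 9 factors all below. Over the 13424 genes tested these patterns held for 2158 (16.1%) and 2069 genes. The median change was 1.01-fold, and the summed level was 15101.2 ± 283 CPM in uninduced cells against 14927.6 ± 121 CPM with no extra copy. The plot of every factor in every library shows this: the points with no extra copy straddle the uninduced points, and the points with 2 extra copies lie to their right.

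**Figure D1:**
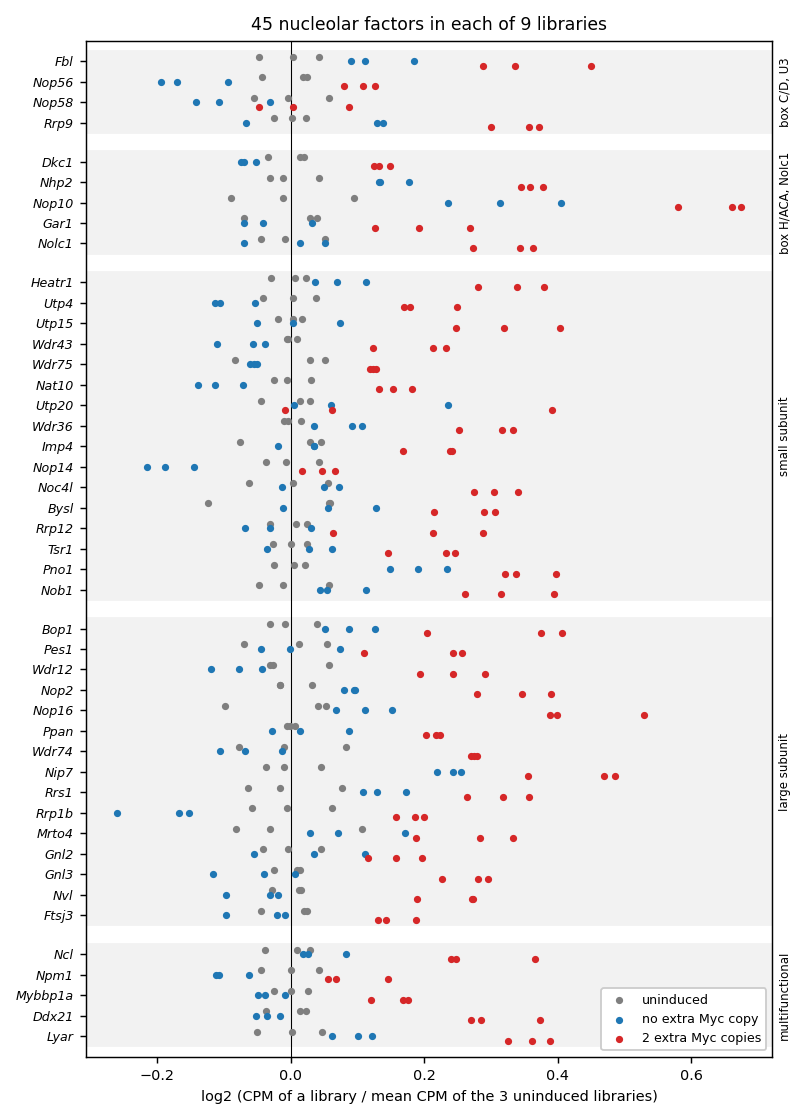
Each row is 1 nucleolar factor, grouped by role, and each point is 1 of 9 libraries, drawn as the log2 ratio of its CPM to the mean of the 3 uninduced libraries (grey: uninduced, blue: no extra Myc copy, red: 2 extra copies). In 43 of 45 rows all 3 red points lie right of the 3 blue points, and the exceptions are Nop58 and Utp20.

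Whether the step from no extra copy to 2 extra copies was larger than the step from uninduced cells to no extra copy was tested for each gene in the same fit. For 19 of the 45 factors it was larger and for 0 smaller, where 4.89% of all genes tested were called larger and 5.65% smaller. Steps were compared as signed log2 changes, so a fall in the first step adds to the difference. Nop56, Nop14, Rrp1b and Npm1, called lower in the first step, are among the factors with a larger second step. For Nop14 the steps were -0.19 and 0.23 on the log2 scale. The count of smaller steps was 0 too at an unadjusted p below 0.05 and with DESeq2, which called 17 larger. The difference between the steps was largest for Rrp1b (1.48-fold, log2 0.57, SE 0.075, adjusted p = 1.62e-06). It was called in 1 of 4 box C/D and U3 proteins, 2 of 5 box H/ACA proteins and 4 of 5 multifunctional proteins. Among subunit factors it was called in 6 of 16 for the small and 6 of 15 for the large subunit. Calls for Wdr75, Utp15, Ncl, Mybbp1a and Ftsj3 were lost in some alternatives. They were kept in 7, 8, 12, 15 and 16 of 17 alternatives, in that order. The 5 factors called higher in both steps, Fbl, Nhp2, Nop10, Pno1 and Nip7, had differences of 0.10, 0.06, -0.01, -0.03 and -0.04 on the log2 scale (SE 0.073, 0.069, 0.095, 0.089 and 0.084), none of them called. Without replicate 1 with 2 extra copies, the count of larger steps was 30 in place of 19.

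As background on control, Myc and its partner Max bind the E-box CACGTG, and the RefSeq windows of 250 bases before to 50 after a gene's start (GRCm38.p6) were searched for it on both strands. Windows were matched for 38 of the 45 factors (41 windows), and 9 of the 38 held CACGTG, that is 23.7%, against 12.0% of 10212 tested genes and 8.09% of all 27025 genes with a window. In 7 of the 9 the motif lay within the 50 bases after the start, as it did in 15.3% of the 1315 windows of tested genes that hold it. The 6 with the largest rise against no extra copy are printed from 130 bases before to 30 bases after the RefSeq start, 5′ to 3′ on the plus strand, with CACGTG in capitals, because they show where the motif sits. All 6 genes lie on that strand, and the start of Wdr43 in RefSeq is 320 bases from that in GENCODE.
Utp4, chr8:106893510-106893669: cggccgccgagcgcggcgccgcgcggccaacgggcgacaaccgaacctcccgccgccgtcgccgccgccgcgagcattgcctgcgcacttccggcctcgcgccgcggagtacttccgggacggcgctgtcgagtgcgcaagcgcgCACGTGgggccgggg
Wdr43, chr17:71616085-71616244: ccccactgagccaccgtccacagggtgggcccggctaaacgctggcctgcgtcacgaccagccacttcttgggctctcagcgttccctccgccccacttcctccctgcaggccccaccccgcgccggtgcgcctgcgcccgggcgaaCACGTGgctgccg
Nop2, chr6:125131753-125131912: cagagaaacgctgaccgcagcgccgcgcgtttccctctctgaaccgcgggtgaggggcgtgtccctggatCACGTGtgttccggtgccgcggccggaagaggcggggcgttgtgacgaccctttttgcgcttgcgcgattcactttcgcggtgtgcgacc
Imp4, chr1:34439699-34439858: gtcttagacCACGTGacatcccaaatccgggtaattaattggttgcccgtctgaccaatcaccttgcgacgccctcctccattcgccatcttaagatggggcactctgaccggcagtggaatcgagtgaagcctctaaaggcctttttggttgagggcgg
Pes1, chr11:3963845-3964004: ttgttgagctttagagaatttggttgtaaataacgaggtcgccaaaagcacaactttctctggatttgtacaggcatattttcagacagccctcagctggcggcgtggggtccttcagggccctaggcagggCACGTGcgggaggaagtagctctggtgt
Tsr1, chr11:74897950-74898109: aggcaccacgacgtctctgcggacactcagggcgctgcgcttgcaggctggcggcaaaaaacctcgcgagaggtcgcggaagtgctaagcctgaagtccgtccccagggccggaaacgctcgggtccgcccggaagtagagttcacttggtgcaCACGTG
Counted with the first transcribed base as +1, the motif begins at +16 in Utp4, +18 in Wdr43, +3 in Pes1 and +25 in Tsr1, and at -60 in Nop2 and -121 in Imp4. The others are Mybbp1a at +41 and Pno1 and Utp20 at +38. The 9 factors with the motif changed by a median of 1.15-fold (1.04-fold to 1.22-fold) between no and 2 extra copies, and the 29 without it by 1.20-fold (1.08-fold to 1.30-fold). These ranges overlap.

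Other motifs in the same windows were counted as a description. CACGCG, a near relative of the E-box, was in 34.2% of the 38 factors and 20.2% of tested genes. The palindromic NRF1 motif was in 26.3% and 11.5%, the ETS motif CCGGAAGT in 23.7% and 9.07%, the NF-Y motif CCAAT in 34.2% and 43.8%, and the YY1 motif AAGATGGC in 5.26% and 5.23%. These letters were searched on both strands, CACGCG can lie inside the NRF1 motif, and overlaps between motifs were not removed.

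The core proteins of the box C/D snoRNPs and the U3 snoRNP come first, and 3 of these 4 were called higher against both control groups. Fbl (ENSMUSG00000046865, chromosome 7, 28169710 to 28179269) encodes fibrillarin, the ribose methyltransferase. It stood at 309, 319.9 and 328 CPM in the uninduced libraries, 339.7, 362 and 345 without an extra copy and 402, 389.6 and 436 with 2 extra copies. The 3 groups did not overlap and rose in that order, by 1.17-fold from no extra to 2 extra copies (log2 0.23, SE 0.042, adjusted p = 0.000171) and by 1.10-fold from uninduced cells to no extra copy (log2 0.13, SE 0.042, adjusted p = 0.0317). Nop56 (ENSMUSG00000027405, chromosome 2, 130274430 to 130279313), a scaffold protein that sits beside fibrillarin, had 523, 549 and 546 CPM in uninduced cells, 505, 479 and 472 without an extra copy and 569.9, 581 and 588 with 2 extra copies. Its lowest values were thus in the cells with no extra copy: it fell 1.11-fold from the uninduced level (log2 -0.15, SE 0.036, adjusted p = 0.00345) and was 1.19-fold higher with 2 extra copies than with none (log2 0.26, SE 0.036, adjusted p = 5.23e-06). Nop58 (ENSMUSG00000026020, chromosome 1, 59684971 to 59719044), the partner scaffold of Nop56 in the same particle, was at 474, 495 and 457 CPM uninduced, 465, 441 and 431 with none and 476, 459.8 and 505 with 2 extra copies. These ranges overlap, and Nop58 was not called in either comparison with 2 extra copies (1.08-fold against no extra copy, log2 0.11, SE 0.040, adjusted p = 0.0643). Rrp9 (ENSMUSG00000041506, chromosome 9, 106475963 to 106485424), a protein specific to the U3 particle, had 134, 132 and 129.9 CPM in uninduced cells, 126, 145 and 145 without an extra copy and 163, 171 and 169 with 2 extra copies. The first 2 groups overlap, and all 3 libraries with 2 extra copies lie above both (1.21-fold against no extra copy, log2 0.27, SE 0.049, adjusted p = 0.000151).

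All 5 box H/ACA proteins, counting Nolc1, were called higher with 2 extra copies in both comparisons. Dkc1 (ENSMUSG00000031403, chromosome X, 75095854 to 75109777) encodes dyskerin, the pseudouridine synthase. Its levels were 291, 302 and 301 CPM in uninduced cells, 284, 283 and 288 without an extra copy and 327, 325 and 331 with 2 extra copies. The spread within a group was small and the last group stood clear of both others (1.15-fold against no extra copy, log2 0.20, SE 0.037, adjusted p = 0.000218). Nop10 (ENSMUSG00000027133, chromosome 2, 112261926 to 112263269) and Nhp2 (ENSMUSG00000001056, chromosome 11, 51619735 to 51623714) are small proteins of the same core. Nop10 had 77.3, 81.7 and 87.9 CPM in uninduced cells, 109, 102 and 96.9 without an extra copy and 123, 131 and 130.1 with 2 extra copies. With no overlap between groups it rose in both steps, by 1.25-fold and 1.24-fold (adjusted p = 6.73e-05 and 7.09e-05), and its change against uninduced cells, 1.56-fold, was the largest of the 45 factors. Nhp2 was at 180.1, 189 and 183 CPM uninduced, 202, 208 and 202 with none and 234, 236 and 239 with 2 extra copies and also rose in both steps, by 1.11-fold and 1.16-fold (adjusted p = 0.00967 and 0.000271). The remaining core protein, Gar1 (ENSMUSG00000028010, chromosome 3, 129824912 to 129831396), had 75.6, 81.5 and 81.0 CPM in uninduced cells, 75.6, 81.2 and 77.2 without an extra copy and 86.6, 90.7 and 95.6 with 2 extra copies. Only the last group stood apart (1.16-fold against no extra copy, log2 0.22, SE 0.057, adjusted p = 0.00729), and this call was lost with DESeq2 and without replicate 3 with 2 extra copies, with an adjusted p of up to 0.061. Nolc1 (ENSMUSG00000015176, chromosome 19, 46075863 to 46085530), a nucleolar chaperone of snoRNPs, was at 399.8, 410.0 and 427 CPM uninduced, 427, 393 and 416 with none and 498, 523 and 530.2 with 2 extra copies. Its uninduced libraries and those with no extra copy overlap, and with 2 extra copies it was 1.26-fold higher than with none (log2 0.33, SE 0.039, adjusted p = 2.51e-07).

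**Figure D2:**
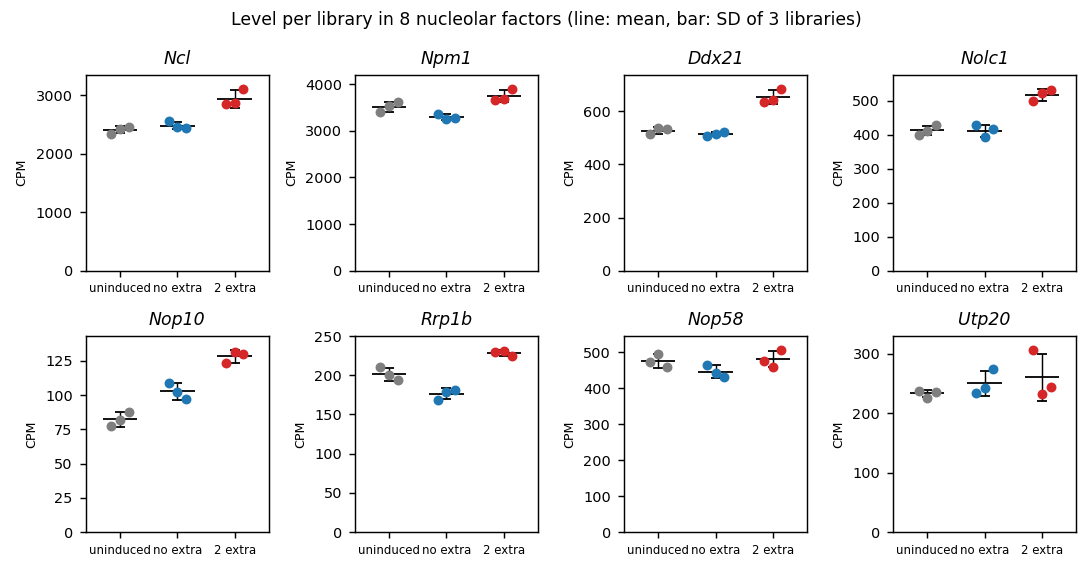
Level in CPM (axes start at 0) of 8 nucleolar factors in each library of the 3 groups, with the mean as a line and the SD of 3 libraries as a bar. Nop10 rises in both steps, Rrp1b and Npm1 are lowest with no extra copy, and in Utp20 replicate 1 with 2 extra copies, at 305 CPM, stands above its group.

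Small subunit factors numbered 16, of which 15 were called higher against no extra copy and 14 against uninduced cells, with 0 lower in either by edgeR at an adjusted or unadjusted p below 0.05 or by DESeq2. Utp15 (ENSMUSG00000041747, chromosome 13, 98246845 to 98263041) and Utp4 (ENSMUSG00000041438, chromosome 8, 106893636 to 106923088) belong to the complex that binds the nascent precursor first. Utp15 was at 85.2, 87.3 and 86.5 CPM in uninduced cells, 86.5, 90.9 and 83.3 without an extra copy and 103, 108 and 114 with 2 extra copies, which puts only the last group apart. It had the largest rise of the class against no extra copy (1.24-fold, log2 0.31, SE 0.054, adjusted p = 0.000107). Utp4, whose window with the E-box is printed above, had 190.4, 185 and 195 CPM uninduced, 176, 183 and 176 with none and 215, 214 and 226 with 2 extra copies. Its libraries with no extra copy were all below the uninduced libraries and those with 2 extra copies all above, with a rise of 1.22-fold over no extra copy (log2 0.29, SE 0.042, adjusted p = 6.89e-06). Nop14 (ENSMUSG00000036693, chromosome 5, 34638536 to 34660148) and Noc4l (ENSMUSG00000033294, chromosome 5, 110648418 to 110653417) work together in the same large precursor particle. Nop14 was at 147, 152 and 144 CPM in uninduced cells, 129.9, 128 and 134 without an extra copy and 149.7, 153 and 155 with 2 extra copies. It was thus low with no extra copy alone, 1.14-fold below uninduced cells (log2 -0.19, SE 0.044, adjusted p = 0.00317), and rose 1.17-fold with 2 extra copies (log2 0.23, SE 0.045, adjusted p = 0.000397) to a level that overlapped the uninduced one (adjusted p = 0.515). Noc4l was not called in that step, with 104, 99.6 and 108 CPM uninduced, 103, 108 and 109 with none and 128, 132 and 126 with 2 extra copies, and was 1.21-fold higher with 2 extra copies than with none (log2 0.27, SE 0.049, adjusted p = 0.000179).

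Pno1 and Utp20 are the other small subunit factors with a pattern of their own. Pno1 (ENSMUSG00000020116, chromosome 11, 17203198 to 17211568) is an RNA-binding protein that stays on the precursor until its last cut. It was at 83.5, 81.8 and 84.5 CPM in uninduced cells, 97.9, 92.3 and 95.0 without an extra copy and 104, 109.7 and 105 with 2 extra copies. The groups did not overlap, and the first step was 1.14-fold (log2 0.19, SE 0.052, adjusted p = 0.0114) and the second 1.12-fold (log2 0.16, SE 0.051, adjusted p = 0.0252). The second call was lost with DESeq2, with library size alone, and without replicate 2 with 2 extra copies or replicates 2 or 3 with no extra copy, with an adjusted p of up to 0.159. Utp20 (ENSMUSG00000004356, chromosome 10, 88746607 to 88826804) is a very long protein of the precursor particle. Its values were 238, 226 and 235 CPM in uninduced cells, 234, 243 and 274 without an extra copy and 305, 232 and 243 with 2 extra copies. Replicate 1 with 2 extra copies, the library that stood apart over all genes, is the high point, all groups overlap, and Utp20 was not called in any of the 3 comparisons (1.04-fold for 2 extra copies against none, log2 0.06, SE 0.114, adjusted p = 0.789). It stayed uncalled in this comparison under all 18 alternatives, that library left out among them. The other small subunit factors were Heatr1, Wdr43, Wdr75, Nat10, Wdr36, Imp4, Bysl, Rrp12, Tsr1 and Nob1, all called higher in both comparisons. Their rises against no extra copy ran from 1.13-fold for Wdr75, a partner of Utp4 and Utp15, to 1.20-fold for Nat10, which acetylates ribosomal RNA, and 1.09-fold to 1.26-fold against uninduced cells, with Heatr1 at the top.

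Large subunit factors numbered 15, with 14 called higher against no extra copy, 15 against uninduced cells, and 0 lower by edgeR at an adjusted or unadjusted p below 0.05 or by DESeq2. Pes1, Bop1 and Wdr12 form the PeBoW complex, which is needed to mature the large subunit's RNA. Pes1 (ENSMUSG00000020430, chromosome 11, 3963975 to 3980004) was at 266, 281 and 289.7 CPM in uninduced cells, 279, 270.4 and 294 without an extra copy and 301, 333 and 330.0 with 2 extra copies. Bop1 (ENSMUSG00000022557, chromosome 15, 76452989 to 76477277) was at 156, 158 and 163 CPM uninduced, 165, 169 and 174 with none and 183, 211 and 206 with 2 extra copies, and Wdr12 (ENSMUSG00000026019, chromosome 1, 60069785 to 60098645) at 120.3, 128 and 121 CPM uninduced, 113, 117 and 119 with none and 141, 151 and 146 with 2 extra copies. In all 3 subunits the libraries with 2 extra copies lay above all others. The rises over no extra copy were 1.15-fold for Pes1, 1.19-fold for Bop1 and 1.25-fold for Wdr12 (SE of log2 0.044, 0.047 and 0.048; adjusted p = 0.00163, 0.000288 and 8.68e-06). Whether the subunits differ in their rise was not tested.

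Among the other large subunit factors, Rrp1b (ENSMUSG00000058392, chromosome 17, 32036100 to 32062865), a nucleolar protein on early large subunit precursors, had the largest rise of the 45 against no extra copy. It was at 210.2, 201 and 193 CPM in uninduced cells, 168, 179 and 181 without an extra copy and 229, 231 and 225 with 2 extra copies. The 3 groups were separate with the lowest values in the cells with no extra copy, 1.14-fold below uninduced cells (log2 -0.19, SE 0.043, adjusted p = 0.00156), and the rise from there to 2 extra copies was 1.30-fold (log2 0.37, SE 0.043, adjusted p = 1.33e-07). Against uninduced cells the rise was 1.13-fold (log2 0.18, SE 0.041, adjusted p = 0.00138). Wdr74 (ENSMUSG00000042729, chromosome 19, 8735827 to 8740624), which works with the ATPase Nvl to remodel the particle, had 115, 109 and 122 CPM uninduced, 107, 110.1 and 114 with none and 139, 140.0 and 139.5 with 2 extra copies. Its last group was very tight and clear of the others (1.27-fold over no extra copy, log2 0.34, SE 0.049, adjusted p = 7.3e-06). Nop16 (ENSMUSG00000025869, chromosome 13, 54584185 to 54590090), another early factor of this subunit, was at 75.1, 68.2 and 75.7 CPM in uninduced cells, 76.5, 81.1 and 78.8 without an extra copy and 96.2, 95.6 and 105 with 2 extra copies. It rose 1.26-fold over no extra copy (log2 0.33, SE 0.058, adjusted p = 0.000108) and 1.36-fold over uninduced cells (adjusted p = 3.98e-07). Nip7 (ENSMUSG00000031917, chromosome 8, 107056877 to 107060931), an RNA-binding assembly factor, was at 103, 109 and 105 CPM uninduced, 125, 126 and 123 with none and 146, 135 and 148 with 2 extra copies. It climbed in both steps without overlap, by 1.18-fold (log2 0.24, SE 0.049, adjusted p = 0.000633) and 1.15-fold (log2 0.20, SE 0.048, adjusted p = 0.00354).

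Gnl2 (ENSMUSG00000028869, chromosome 4, 125016585 to 125055380), a GTPase that acts in the nucleolus and nucleoplasm, was the large subunit factor not called against no extra copy. Its levels were 123, 126 and 131 CPM in uninduced cells, 137, 122 and 129.5 without an extra copy and 137, 145 and 141 with 2 extra copies. The lowest library with 2 extra copies and the highest with none nearly meet (1.09-fold, log2 0.13, SE 0.049, adjusted p = 0.0653), while the call against uninduced cells held at 1.12-fold (log2 0.16, SE 0.048, adjusted p = 0.0147). That call was lost with DESeq2 and without replicate 1 of uninduced cells or replicate 2 with 2 extra copies, with an adjusted p of up to 0.0773. Against no extra copy, both Gnl2 and Nop58 were called higher under some alternatives, such as without replicate 1 with 2 extra copies, with adjusted p values down to 0.0156 and 0.0221. The other large subunit factors were Nop2, Ppan, Rrs1, Mrto4, Gnl3, Nvl and Ftsj3, all called higher in both comparisons. Their rises over no extra copy ran from 1.13-fold for Rrs1 and Mrto4 to 1.25-fold for Gnl3, which encodes nucleostemin, a GTPase named for its level in stem cells. For Rrs1 the call was lost with DESeq2 and without replicates 1 or 2 with no extra copy, and for Mrto4 with DESeq2, with library size alone and without replicates 2 or 3 with no extra copy, with adjusted p values of up to 0.0881 and 0.145.

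The 5 multifunctional nucleolar proteins were all called higher with 2 extra copies in both comparisons. Ncl (ENSMUSG00000026234, chromosome 1, 86344719 to 86359400) encodes nucleolin, an abundant RNA-binding protein. It was at 2342, 2423 and 2454 CPM in uninduced cells, 2548, 2449 and 2437 without an extra copy and 2841, 2855 and 3101 with 2 extra copies. The first groups overlap, and the last lies above both (1.18-fold over no extra copy, log2 0.24, SE 0.033, adjusted p = 2.82e-06). Npm1 (ENSMUSG00000057113, chromosome 11, 33152287 to 33163206) encodes nucleophosmin, a chaperone that helps to build the nucleolus. Its values were 3410.5, 3519.9 and 3622 CPM in uninduced cells, 3367, 3255 and 3265 without an extra copy and 3654, 3686 and 3892 with 2 extra copies. All libraries with no extra copy were below the uninduced ones (1.07-fold lower, log2 -0.09, SE 0.031, adjusted p = 0.0375), and 2 extra copies brought a rise of 1.14-fold over none (log2 0.18, SE 0.031, adjusted p = 6.08e-05). Ddx21 (ENSMUSG00000020075, chromosome 10, 62580251 to 62602281), an RNA helicase, had 514, 536 and 532 CPM uninduced, 508, 515 and 522 with none and 636, 642 and 683 with 2 extra copies. It showed the smallest p of the 45 factors against no extra copy (1.27-fold, log2 0.35, SE 0.036, adjusted p = 2.27e-08) and was not called between uninduced cells and no extra copy (0.976-fold, adjusted p = 0.593). Lyar (ENSMUSG00000067367, chromosome 5, 38220470 to 38234306), a zinc-finger protein of the nucleolus, was at 138, 143 and 148 CPM uninduced, 156, 149 and 153 with none and 187, 184 and 179 with 2 extra copies, with no overlap between the 3 groups. Its rise over no extra copy was 1.20-fold (log2 0.27, SE 0.043, adjusted p = 4.38e-05), and its first step did not pass the test (1.07-fold, adjusted p = 0.174). The last of the 5, Mybbp1a, which binds the transcription factor Myb, rose 1.14-fold over no extra copy (SE of log2 0.032, adjusted p = 9.69e-05).

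**Figure D3:**
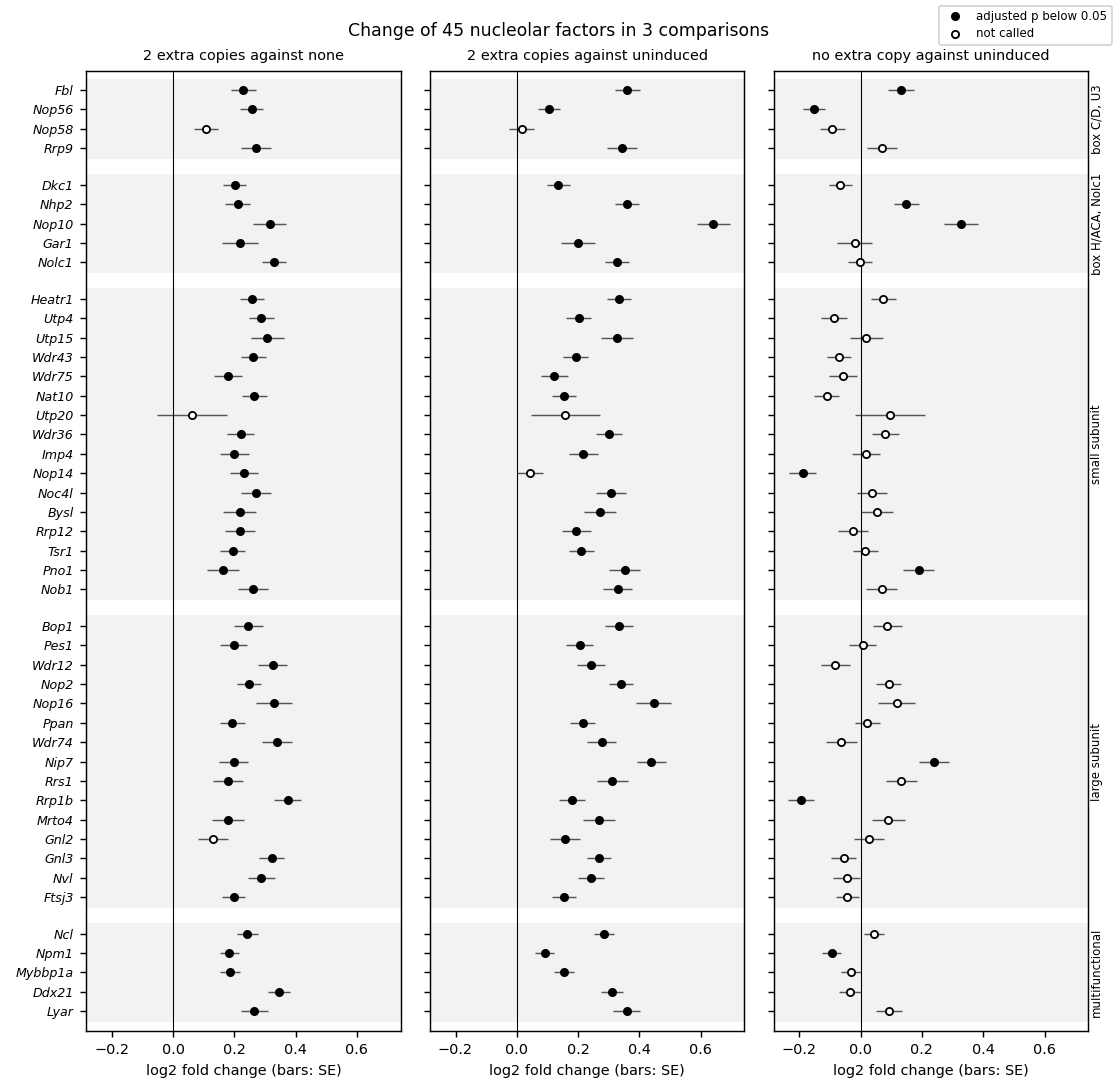
Log2 fold change (horizontal axis) of the 45 nucleolar factors in the 3 comparisons, with bars for 1 SE and filled points for an adjusted p below 0.05. In the left and middle panels 42 of 45 points are filled, all right of 0, and in the right panel 5 filled points lie right of 0 and 4 left of it.

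In the comparison of no extra copy with uninduced cells, the shares of factors called higher (11.1%) and lower (8.89%) were near those of all genes tested, 7.10% and 6.39%, so the calls are given as values of single genes. Higher were the snoRNP proteins Fbl, Nhp2 and Nop10 and the assembly factors Pno1 and Nip7, by 1.10-fold to 1.25-fold. Lower were Nop56, Nop14, Rrp1b and Npm1, by 1.07-fold to 1.14-fold. The calls for Nop10, Nip7, Nop56, Nop14 and Rrp1b were kept in all 18 alternatives. Those for Fbl, Nhp2, Pno1 and Npm1 were lost in some, with adjusted p values of up to 0.22, 0.159, 0.12 and 0.196. DESeq2 dropped all 4, a length offset, with or without the replicate block, dropped Nhp2 and Pno1, upper-quartile factors dropped Fbl, testing without a filter dropped Fbl and Npm1, and each was lost without at least 1 library: Fbl without replicates 1 or 2 of uninduced cells or 2 or 3 with no extra copy, Nhp2 without uninduced replicates 1 or 3 or replicate 2 with no extra copy, Pno1 without uninduced replicate 2 or replicate 1 with no extra copy, and Npm1 without uninduced replicates 2 or 3, replicate 2 with 2 extra copies, or replicates 2 or 3 with no extra copy. The libraries differ in a trend of level over gene length, taken as the merged exon bases of a gene. The r across genes was 0.160, 0.0742 and 0.0632 in uninduced cells and -0.0295, -0.00231 and 0.0361 with no extra copy. With 2 extra copies it was 0.0216, -0.130 and -0.163. Genes are not independent replicates, and the part of this trend in the calls was not tested beyond that offset.

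Against uninduced cells, 5 of the 42 calls for 2 extra copies were lost in some alternatives, those of Nop56, Npm1, Wdr75, Gnl2 and Gar1. Nop56 and Npm1 had dipped in the cells with no extra copy, and their rise over uninduced cells was 1.08-fold (log2 0.10, SE 0.036, adjusted p = 0.0294) and 1.06-fold (log2 0.09, SE 0.031, adjusted p = 0.029). For Nop56 the call was lost without uninduced replicate 1 or replicates 2 or 3 with 2 extra copies, and for Npm1 without uninduced replicates 1 or 2 or replicate 3 with 2 extra copies. Both calls were also lost with library size alone, with upper-quartile factors and without a filter, and that of Npm1 with a length offset and with only the groups compared, with adjusted p values of up to 0.136 and 0.175. Wdr75 (1.09-fold, adjusted p = 0.0406) lost it in 8 alternatives: DESeq2, library size alone, upper-quartile factors, no filter, and without uninduced replicates 1 or 3 or replicates 2 or 3 with 2 extra copies. Gar1 (1.15-fold, adjusted p = 0.00796) lost it with DESeq2 and without uninduced replicate 1 or replicate 3 with 2 extra copies, and the adjusted p reached 0.183 for Wdr75 and 0.0691 for Gar1. The strongest rises against uninduced cells were in Nop10 (1.56-fold), Nop16 (1.36-fold) and Nip7 (1.36-fold).

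How far the factors vary among themselves was described from their levels. Scaled to transcript length, all 45 lay above the median of the 13397 tested genes with a length, 8.52 CPM per kb. Their own median was 72.1 CPM per kb, from 12.8 for Wdr12 to 2155 for Npm1. Next after Npm1 came Ncl at 318 and then the box C/D proteins Fbl at 300.0, Nop56 at 285 and Nop58 at 273 CPM per kb. The length was that of 1 annotated transcript per gene, the longest among those ranked first. It was 10012 bases for Wdr12 and 8202 for Ncl, but 1197 for Fbl, so the places of Wdr12 and Ncl depend on this choice. Transcripts of different annotated length behind 1 gene can shift this order. Together the 45 genes took 1.49% to 1.76% of all counts of a library. Replicates were close: the median coefficient of variation of the 45 was 2.78% in uninduced cells, 2.89% without an extra copy and 3.31% with 2 extra copies, next to 3.08%, 3.11% and 3.76% for the 2823 genes tested at or above the lowest factor's level. By role, the summed level went from 1419 ± 23.7 to 1637 ± 53.3 CPM for box C/D and U3 proteins between no and 2 extra copies and from 1082 ± 15.1 to 1300.1 ± 29.2 for box H/ACA proteins. The small subunit factors summed to 2497 to 2572 CPM in the libraries with none and 2918 to 2968 CPM in those with 2 extra copies. For large subunit factors it went from 2582 ± 42.4 to 3059 ± 59.1 CPM, and for the multifunctional proteins from 7317 ± 111 to 8510.4 ± 312. In each role the ranges of the 2 groups did not overlap.

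Of 120 other ribosome biogenesis factors, 73 (60.8%) were called higher and 0 lower with 2 extra copies against none, where 8.30% and 7.70% of all genes tested were. Against uninduced cells 78 (65.0%) were called higher and 0 lower, beside 12.8% and 12.1% of all genes tested. Between no extra copy and uninduced cells 6 (5.0%) were called higher and 0 lower, which is no more than the 7.10% and 6.39% of all genes tested. At an unadjusted p below 0.05 edgeR had 0 lower in the first pair of comparisons and 3 in the last, and DESeq2 called 47, 60 and 1 higher and 0 lower. The other 47 were not called against no extra copy, and the median change of the 120 there was 1.13-fold, from 0.907-fold to 1.34-fold. Of 42 small subunit factors 25 rose, led by Krr1 at 1.34-fold, Wdr46 at 1.30-fold and Sdad1 at 1.25-fold. Of 50 large subunit factors 35 rose, with Ebna1bp2 at 1.27-fold, Rbm28 at 1.29-fold and Rsl1d1 at 1.21-fold. Of 12 snoRNP proteins and assembly helpers 6 rose, among them Ruvbl2 at 1.22-fold and Ruvbl1 at 1.13-fold, ATPases that help to assemble box C/D particles, and Snu13 at 1.17-fold, which binds the box C/D fold. Of 16 genes of the RNA exosome and related nucleases and cofactors 7 rose, with Exosc1 at 1.32-fold, Isg20l2 at 1.17-fold and Mtrex, the helicase of the exosome, at 1.12-fold. For these 12 genes the adjusted p ran from 3.69e-07 to 0.0075 (edgeR). A larger second step was called for 26 (21.7%) of the 120 other factors, beside 4.89% of all genes tested. Without replicates 1, 2 or 3 with no extra copy in turn, this count among the 120 was 16, 10 and 14.

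**Figure D4:**
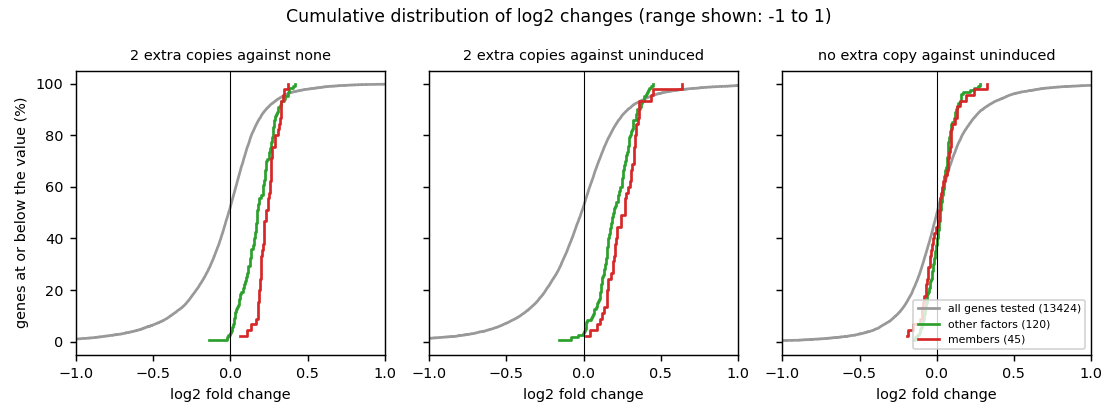
Cumulative share of genes (vertical axis, percent) at or below a log2 fold change (horizontal axis, drawn from -1 to 1) for all 13424 genes tested, the 120 other factors and the 45 nucleolar factors. With 2 extra copies the red and green curves lie right of the grey curve, with medians of 1.17-fold and 1.13-fold against 0.992-fold in the left panel, and in the right panel the 3 medians are 1.01-fold, 1.02-fold and 1.00-fold.

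The direct neighbours of the 45 genes were looked at next, since a head-to-head gene shares the stretch of DNA between the starts. For 20 of the 45, GENCODE gives 22 genes that start within 1000 bases on the other strand, and 18 of these, beside 17 nucleolar factors, passed the filter on low counts. Some of these pairs overlap at their annotated starts. Among the pairs tested, these are Rrp9 and Parp3, Wdr12 and Carf, Rrp1b and Hsf2bp, and Gnl3 and Pbrm1. With 2 extra copies against none, 1 of the 18 (5.56%) was called higher and 0 lower, a share near the 8.30% and 7.70% of all genes tested, and their median change was 1.01-fold. DESeq2 called 0 in either direction, and at an unadjusted p below 0.05 edgeR and DESeq2 each had 1 higher and 0 lower. The one called was Ddx51, the partner of Noc4l and itself on the list of other large subunit factors, at 61.3 ± 3.24 CPM without an extra copy and 70.8 ± 1.78 CPM with 2 extra copies (1.16-fold, log2 0.21, SE 0.064, adjusted p = 0.0185). All 45 nucleolar factors had a positive change, and the upper quartile of all genes tested was 1.08-fold. Most genes tested would thus lie below these factors, whether or not they are neighbours. In 17 of 18 pairs the partner's change was below that of its nucleolar factor, a count that is therefore not particular to such pairs. Beside Utp4, for example, Chtf8, a clamp loader gene that starts 35 bases away, went from 154 ± 1.40 to 159 ± 6.07 CPM (1.03-fold, adjusted p = 0.567). Psmc5, a proteasome gene 75 bases from Ftsj3, stood at 251 ± 6.89 and 252 ± 24.8 CPM (1.00-fold, adjusted p = 0.971). The exception was Parp3, the partner of Rrp9, at 2.67 ± 0.351 and 3.25 ± 0.587 CPM (1.21-fold, SE of log2 0.282, adjusted p = 0.566). Against uninduced cells, Parp3 was the 1 partner of 18 called higher with 2 extra copies (log2 0.80, SE 0.294, adjusted p = 0.0419), from 1.84 ± 0.261 CPM. With no extra copy, 2 of the 18 partners (11.1%) were called lower than in uninduced cells, beside 6.39% of all genes tested. These were Chtf8, from 171 ± 1.44 CPM (log2 -0.15, SE 0.042, adjusted p = 0.0164), and Hsf2bp, the partner of Rrp1b, from 66.2 ± 1.52 to 56.2 ± 0.431 CPM (log2 -0.24, SE 0.063, adjusted p = 0.00954). The factors beside them had log2 changes of -0.19 (Rrp1b, called lower) and -0.09 (Utp4, not called) there. The difference within pairs was not tested. The strand of counting is not known, so reads of a factor may be counted for a partner that overlaps it. The values of Parp3, Carf, Hsf2bp and Pbrm1 are therefore uncertain, and the part of such reads was not tested.

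**Figure D5:**
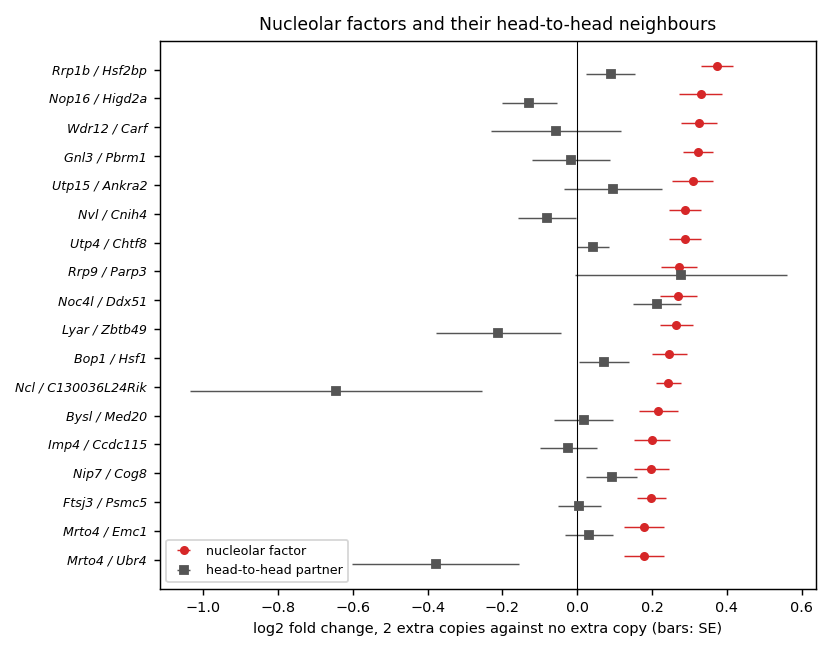
Log2 fold change with 2 extra copies against none (horizontal axis, bars are 1 SE) for nucleolar factors (circles) and the genes that start head to head with them (squares), 1 pair a row. The circles all lie right of 0, the squares scatter around it, and the square lies right of its circle in the row of Rrp9 and Parp3 alone.

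The 45 genes were spread over 18 chromosomes. Nop58 and Wdr12 lie 351 kb apart on chromosome 1, and Utp4, Nip7 and Nob1 lie within 489 kb of each other on chromosome 8. Against no extra copy the neighbours on chromosome 1 changed by 1.25-fold (Wdr12) and 1.08-fold (Nop58), and the difference was not tested. Within 8 of the 45 genes lie small nucleolar RNA genes, 23 in all, which encode the guides that the snoRNP proteins carry. Of these, 0 passed the filter on low counts, and the highest stood at 1.05 CPM, so their levels could not be compared in these libraries. For 5 factors another annotated transcript is at least 90% identical over at least 50% of their length: Fbl, Npm1, Pes1, Rrs1 and Mrto4. Their reads are therefore uncertain, though Rrs1 had whole counts in all libraries and Mrto4 a fractional count in only 1. Nop58, Dkc1, Bysl, Tsr1, Wdr12, Nip7, Nvl and Ftsj3 have no such transcript but had fractional counts in all 9 libraries. No source used here gives the strand used for counting, and exons on the other strand cover 32.3% of the exonic bases of Tsr1, whose value is uncertain too.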

How the data were processed

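Per the labels' protocols, total RNA of sorted ESCs was read from a single end over 75 bp, in 9 libraries of 3 groups with 3 libraries each. The authors' deposited values are expected counts from RSEM on GRCm38, per the file headers; version 1.17 is given in the submitters' processing notes. Cutadapt, Picard and limma are named there too, with no role. An expected count can share out a read that fits more than 1 gene. The aligner and the strand of counting are not given in the sources used here. Of the 45 factors, 27 had whole counts in all libraries and 18 a fractional count in some.

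Counts were rounded to whole numbers, filtered by group with filterByExpr (minimum count 10) and scaled by TMM. The 13424 genes left hold 99.8% of all counts. Differences were tested with the robust quasi-likelihood F-test of edgeR 4.0.16 in R 4.3.3, with 1 coefficient per group over all 9 libraries and Benjamini-Hochberg adjustment over all genes tested. Adjusted p values are from it where no other tool is named. Calls used an adjusted p below 0.05, and "higher", "lower", "rose" and "fell" refer to such calls. The SE was obtained as the size of the log2 change over the square root of F. Levels are CPM after TMM, as mean ± SD. The scripts were tested on simulated data. Alternatives were DESeq2 1.42.0, other scalings, no filter and an offset for the merged exon length of a gene (a loess trend). The others were the replicate block, the groups compared alone, and each library left out in turn.

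The 45 factors, the lists of other factors and markers, and the tests were chosen with earlier results of these data known. Per role, the named factors were the 3 with the largest called rise against no extra copy, those not called there, those called between no extra copy and uninduced cells, the extremes against uninduced cells, and Ncl, Npm1, Fbl, Dkc1, Bop1, Pes1 and Wdr12. Others named for their place in a range, and the factors drawn in the plot of levels, were picked after their values were seen. Of the other factors, up to 3 per list with the smallest p were named, and Riok2, Rbis and Exosc6 were not analysed here. Positions, lengths and head-to-head genes are from GENCODE M21 (GRCm38), promoter windows from RefSeq (GRCm38.p6), and similar transcripts were searched with minimap2 2.31-r1302. For 7 factors no promoter window was used.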

Additional observations from a re-analysis of the deposited data

How the results depend on the processing

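Over 18 alternatives, 38 to 44 of the 45 factors were called higher with 2 extra copies against none and 37 to 42 against uninduced cells, with 0 lower in all of them, and no called result changed sign. The call was kept in every alternative for 38 of 42 factors against no extra copy, 37 of 42 against uninduced cells, 5 of 9 between no extra copy and uninduced cells, and, over the 17 alternatives that allow its test, 14 of 19 for the larger second step. Against no extra copy the median log2 change stayed between 0.20 and 0.27. DESeq2 moved many counts: other factors higher against no extra copy to 47, all genes to 634 higher and 414 lower against no extra copy, 1062 and 782 against uninduced cells, 394 and 402 between no extra copy and uninduced cells, and 322 and 298 for larger and smaller steps. For no extra copy against uninduced cells it gave 2 nucleolar and 1 other factor higher, and it gave 8 other factors with a larger step. A length offset, alone or with the replicate block, gave 3 nucleolar factors higher with no extra copy than in uninduced cells. In that comparison other factors numbered 13 higher with library size alone, 3 without a filter, 11 higher and 1 lower with only the groups compared, and 1 lower with upper-quartile factors. Library size alone gave 14 other factors with a larger step. The cause of these moves was not tested, except that leaving out samples or groups leaves fewer libraries.

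Leaving out each library in turn gave 647 to 1112 of all genes lower against no extra copy (lowest without replicate 2 with no extra copy). For no extra copy against uninduced cells it gave 3 to 5 nucleolar factors higher, 3 to 11 other factors higher and 0 to 1 lower, and 617 to 1074 of all genes higher and 555 to 1119 lower. For the larger second step it gave 15 to 30 nucleolar factors, 10 to 37 other factors and 346 to 951 of all genes, with 404 to 867 smaller. Whether same-numbered libraries are paired could not be decided from 3 libraries per group. Correlations of their deviations from the group means ran from -0.0813 to 0.0807. For differently numbered libraries of different groups they ran from -0.0755 to 0.0561. With the replicate block the nucleolar counts were 42 and 42 higher with 2 extra copies against none and uninduced cells, 5 higher and 4 lower with no extra copy, and 20 larger steps. The snoRNA genes stood at 1.05 CPM at most, too low to compare, and the cause was not tested.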
